A study of Mus musculus with 6 samples.

Results

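The 45 genes described here encode the machinery that copies DNA in S phase, and they were listed by gene symbol for that role. All 45 were found among the 53599 genes of the count table. They were measured by RNA-seq in mouse hepatocytes, 4 days after the animals received an adeno-associated virus, a vector that delivers a gene to cells of the living animal. The Sox4 group received AAV8-TBG-HA-Sox4-P2A-Cre, which carries HA-tagged mouse Sox4, and the control group (EV, empty vector) received AAV8-TBG-Cre, with 3 libraries in each group. The TBG promoter is active in hepatocytes, and both groups received Cre. The labels give the genotype as WT, whereas the study's methods describe Rosa26-LSL-Cas9-EGFP mice, in which Cre switches on Cas9 and EGFP. The mice were 4 to 8 weeks old at injection. No source says that libraries with the same number came from littermates, and the cells were enriched on Percoll, a density medium, without a sort for the vector. The comparison asks which genes differ between the groups in hepatocytes 4 days after injection of the virus.

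Replication starts when the origin recognition complex, Cdc6 and Cdt1 load the ring of Mcm2 to Mcm7 onto DNA in G1, a step called licensing. In S phase the kinase Cdc7 with its partner Dbf4, together with Cdc45, the GINS complex and Mcm10, turns the loaded ring into a moving helicase, and polymerases, the sliding clamp and its loader, ligase and histone chaperones follow. Most of these genes are transcribed periodically, and many of their promoters hold sites for E2F factors, which act at the entry into S phase. Hepatocytes of an adult liver rest outside the cell cycle and re-enter it after injury.

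Before the values, the sequence just upstream of 8 members is shown, because the members differ in whether it holds E2F-type letters. RefSeq promoters (build GRCm38.p6) were matched by symbol for 37 of 45 members, as 300 bases from 250 before to 50 after a start. The letters searched on both strands were TTTCCCGC, TTTGGCGC, TTTCGCGC, TTTGCCGC and GGCGGGAA, with overlapping matches taken as 1 site. Each line below is the 170 bases before the start, 5′ to 3′ on the gene's own strand, and capitals mark an E2F-type match except in Mcm10, where they mark the SOX-type letters AACAAAG. The first 6 genes are examples of members with a match before the start, all at higher values in Sox4, and the last 2 are a member that fell and one that did not pass the test.
Orc1, chr4:108579284-108579453, + strand: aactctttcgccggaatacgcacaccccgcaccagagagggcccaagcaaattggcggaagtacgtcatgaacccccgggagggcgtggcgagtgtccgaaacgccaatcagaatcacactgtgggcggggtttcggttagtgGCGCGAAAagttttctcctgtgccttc
Cdc6, chr11:98907981-98908150, + strand: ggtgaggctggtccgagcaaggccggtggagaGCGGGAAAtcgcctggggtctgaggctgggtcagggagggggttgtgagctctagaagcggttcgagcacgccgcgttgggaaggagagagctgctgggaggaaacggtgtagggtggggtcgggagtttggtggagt
Mcm5, chr8:75109339-75109508, + strand: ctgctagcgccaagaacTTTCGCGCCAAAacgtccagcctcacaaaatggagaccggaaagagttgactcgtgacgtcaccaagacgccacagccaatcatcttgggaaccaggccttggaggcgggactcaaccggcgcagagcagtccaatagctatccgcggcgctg
Mcm6, chr1:128359706-128359875, - strand: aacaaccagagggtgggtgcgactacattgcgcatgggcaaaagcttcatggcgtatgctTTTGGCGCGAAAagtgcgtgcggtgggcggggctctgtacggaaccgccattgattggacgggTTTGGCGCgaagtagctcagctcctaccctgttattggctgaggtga
Gins3, chr8:95633389-95633558, + strand: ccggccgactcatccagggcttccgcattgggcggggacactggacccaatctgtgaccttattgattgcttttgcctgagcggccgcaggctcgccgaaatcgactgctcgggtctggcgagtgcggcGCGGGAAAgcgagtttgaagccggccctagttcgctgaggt
Rrm1, chr7:102441525-102441694, + strand: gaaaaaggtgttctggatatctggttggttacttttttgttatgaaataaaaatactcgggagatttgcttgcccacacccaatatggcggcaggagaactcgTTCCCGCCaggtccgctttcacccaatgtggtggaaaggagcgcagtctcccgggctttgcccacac
Mcm10, chr2:5012792-5012961, - strand: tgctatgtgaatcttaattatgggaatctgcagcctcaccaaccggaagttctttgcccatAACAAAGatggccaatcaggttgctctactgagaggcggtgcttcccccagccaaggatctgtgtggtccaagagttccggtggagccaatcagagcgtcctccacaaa
Dut, chr2:125247345-125247514, + strand: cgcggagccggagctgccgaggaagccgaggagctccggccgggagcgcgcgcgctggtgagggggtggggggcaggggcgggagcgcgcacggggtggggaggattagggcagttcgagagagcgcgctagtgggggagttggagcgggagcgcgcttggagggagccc
E2F-type letters were present in the promoters of 20 of the 37 matched members (54.1%). The share was 68.0% for the 25 matched members that were higher in Sox4 and 12.5% for the 8 that did not pass the test, of which Pola1 held the match. For comparison, 4.5% of the 27025 genes with a promoter in the table, 8.1% of the 9664 tested genes with one and 9.2% of the 2890 genes higher in Sox4 held them. The 4 members with at least 2 such sites in 1 promoter were Mcm3, Mcm6, Mcm7 and Rfc3, and Mcm2 held none in this window. The SOX-type letters AACAAAG or AACAATG were found in 2 of 37 members (Mcm10 and Rfc3, 5.4%) against 7.1% of tested genes. CCAAT was found in 56.8% of members and 43.5% of tested genes. These counts describe letters in a fixed window and were not tested.

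Library totals lay between 15090629 and 16964860 counts, and 41 of 45 members passed the filter on low counts, leaving Orc1, Pole2, Fen1 and Exo1 untested. Levels are counts scaled to a common library size (CPM) on library sizes scaled by TMM (trimmed mean of M-values), log2 fold changes are Sox4 over EV, and adjusted p-values are from edgeR's quasi-likelihood test over all 12691 tested genes, with a threshold of 0.05. Sox4 itself had 0 to 3 counts in the EV libraries and 11816 to 21697 in the Sox4 libraries, which separates the groups as labelled. The summed CPM of 10 hepatocyte markers was 120820 to 144080 in EV and 85926 to 99778 in Sox4, so the labelled cell type was the main one in every library. In such bulk RNA, more cells that express a gene and more RNA per cell cannot be told apart.

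Most of the machinery was higher in Sox4. Of 41 tested members, 29 rose (70.7%), 1 fell (Mcm10) and 11 did not pass, against 29.0% of all tested genes higher and 26.0% lower. Of the 29, 6 (Cdc6, Cdc7, Gins2, Gins3, Chaf1b and Clspn) passed the filter on low counts only through the Sox4 libraries, where they are high, and their tests are no separate support; among the 35 members above the filter's cutoff in all 6 libraries, 23 rose and 1 fell. At least 2-fold, 22 members rose and 1 fell, against 16.5% and 11.9% of all tested genes. The 22 include the 6 that passed the filter only through the Sox4 libraries. Over all 45 members, the libraries of the groups did not overlap for 33 genes in the higher direction and 2 in the lower (Mcm10 and Tk1). The shares over tested genes were 33.1% and 29.9%. The 33 include the same 6 members and also Orc1, Pole2 and Exo1, which were untested. The median log2 fold change of the tested members was 1.32 (the same with genes absent from EV set to a lower bound), beside a median of 0.04 over all tested genes. Every tested member of licensing, the helicase ring, its kinase, ribonucleotide reductase and the histone chaperone CAF-1 rose. Of these, Cdc6, Cdc7 and Chaf1b are among the 6 whose tests are no separate support. Mcm10 fell, and Tk1, Cdc45, Gins4, Pola1, Pola2, Rfc2, Rfc5, Dut, Slbp, Brca1 and Tipin did not pass. The smallest log2 fold change among the 29 was 0.51 (Tyms).

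**Figure D1:**
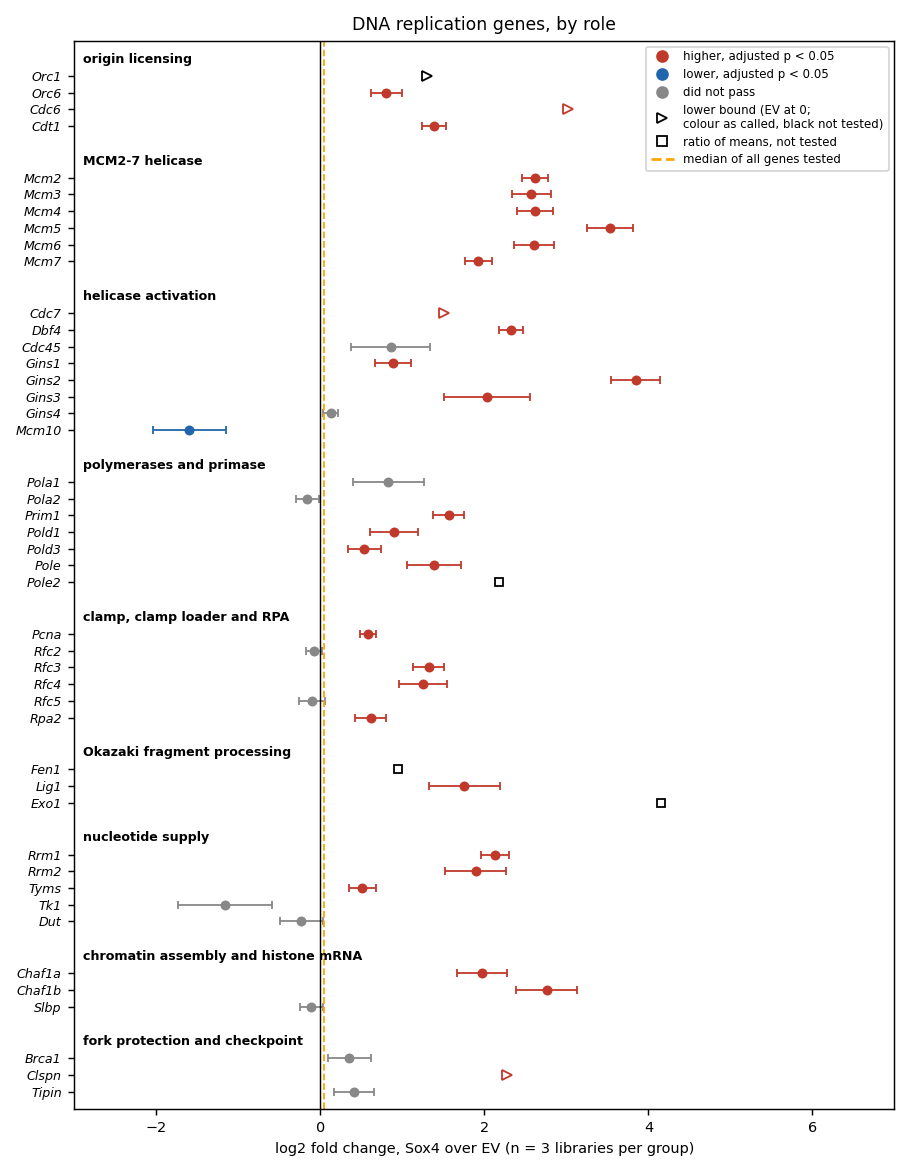
Log2 fold changes of the 45 DNA replication genes, grouped by role (vertical axis), with Sox4 over EV on the horizontal axis and bars of ± 1 SE (n = 3 libraries per group). Filled circles are fitted values coloured by the test, open triangles are lower bounds for genes with no EV count, open squares are ratios of means of untested genes and the dashed line is the median of all tested genes; the 6 ring genes lie between 1.93 and 3.53, and Mcm10 lies alone at -1.60.

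The 4 listed licensing genes were low or absent in EV and higher in Sox4. Cdc6, the loader that brings the ring to the origin, had 0 counts in all 3 EV libraries and 66, 27 and 16 counts in Sox4 replicates 1 to 3. With a floor of 3 counts in each EV library, this was at least 8.12-fold higher. Orc1, the ATPase subunit of the origin recognition complex, also had 0 counts in every EV library and had 13, 15 and 5 counts in Sox4, at least 2.47-fold higher and untested. Neither gene was seen in any EV library, so the groups did not overlap, although the Sox4 values spread over a wide range. Cdt1, the other loading factor, had 3.62, 3.57 and 3.41 CPM in EV and 8.72, 11.1 and 7.85 CPM in Sox4. Its EV libraries were nearly equal and every Sox4 library lay above them (log2 fold change 1.38, SE 0.15, adjusted p = 0.000417). Orc6, which completes the origin complex, rose by a log2 of 0.80 (adjusted p = 0.0204), but leaving out EV replicate 2 (adjusted p = 0.0736), EV replicate 3 (0.0649) or Sox4 replicate 3 (0.0675) ended the call.

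The ring itself rose as a unit. All 6 genes, Mcm2 to Mcm7, passed the test, did not overlap between groups and were at least 2-fold higher in Sox4, with a median log2 fold change of 2.61. Mcm2 had 1.85, 2.05 and 1.96 CPM in EV and 13.3, 13.1 and 9.63 CPM in Sox4 (log2 fold change 2.62, SE 0.16, adjusted p = 1.09e-05). On the log2 scale, Mcm5 showed the widest difference of the 6, with 1.23, 0.987 and 1.45 CPM in EV against 18.6, 13.8 and 10.3 CPM in Sox4 (3.53, SE 0.28, adjusted p = 9.28e-06). Mcm7 showed the narrowest on that scale, although the widest in CPM, with 14.3, 12.98 and 14.7 CPM in EV against 63.2, 53.3 and 43.3 CPM in Sox4 (1.93, SE 0.17, adjusted p = 8.79e-06). For these 3 genes the lowest Sox4 library was well above the highest EV library, and Sox4 replicate 1 was the highest of its group. Mcm3, Mcm4 and Mcm6 gave log2 fold changes of 2.57, 2.62 and 2.61. Summed over the 6 genes, the level was 25.7, 25.7 and 27.2 CPM in EV and 160, 135 and 107 CPM in Sox4.

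The subunits of the ring were not at equal levels per length. In CPM per kb of exon, Mcm7 was highest of the 6 in both groups (3.17 ± 0.21 in EV and 12.0 ± 2.25 in Sox4, mean ± SD, n = 3), and Mcm2 was lowest (0.281 ± 0.014 and 1.73 ± 0.30), within the spread of Mcm5 in EV (0.307 ± 0.058). Mcm7 contains the microRNAs Mir25 and Mir93, shares 23.3% of its 50-base words with other transcripts, chiefly Gm5487, and overlaps Ap4m1 and Cops6 on the opposite strand, so its level is less certain than those of the other 5 genes, which share at most 1.5%. Among all 45 members, Pcna had the highest level per kb in both groups, Mcm7 moved from rank 7 in EV to rank 2 in Sox4, Mcm6 from 23 to 4 and Rrm1 from 19 to 5, while Mcm10 moved from rank 3 to 18 and Tk1 from 4 to 24.

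**Figure D2:**
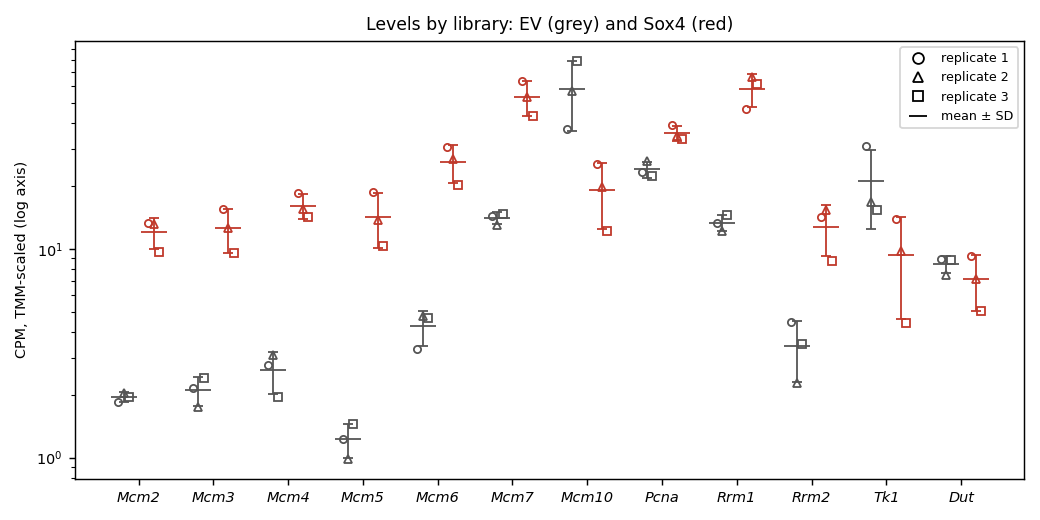
CPM (log axis) of 12 members in each library, EV in grey and Sox4 in red, with 1 symbol per replicate number and the mean ± SD (n = 3). For the ring genes and Rrm1 every Sox4 library lies above every EV library, Mcm10 lies the other way, and for Dut the groups overlap.

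The step that turns the ring on was divided. Of 8 activation genes, 5 rose, 1 fell and 2 did not pass, against 29.0% of all tested genes higher and 26.0% lower. Of the 5, Cdc7, Gins2 and Gins3 passed the filter on low counts only through the Sox4 libraries, so their tests are no separate support. Cdc7, the kinase that phosphorylates the ring, had 0 counts in every EV library and 15, 12 and 11 counts in Sox4 (at least 2.84-fold higher). Its regulatory partner Dbf4 had 1.31, 1.90 and 1.45 CPM in EV and 7.67, 8.02 and 7.70 CPM in Sox4 (log2 fold change 2.32, SE 0.15, adjusted p = 3.7e-05). Both partners were therefore separated between groups, with Sox4 libraries close to each other. In the GINS complex, a tetramer that joins Cdc45 and the ring, Gins2 had 3, 2 and 1 counts in EV and 38, 40 and 56 in Sox4. The ratio of summed Gins2 counts was 15.03 (exact 95% interval 6.73 to 41.7, counting error only), and 67.3% of its exon length overlaps Gse1 on the opposite strand, so reads from the 2 genes may not have been told apart. Gins3, with 6, 8 and 4 counts in EV and 61, 32 and 18 in Sox4, was at a log2 of 2.03. Gins1 rose by 0.89 (adjusted p = 0.0138), a call that ended when EV replicate 2 (adjusted p = 0.0597) or 3 (0.0518) was left out. Gins4 had 11.04 ± 0.719 CPM in EV and 12.0 ± 1.03 CPM in Sox4 (0.12, adjusted p = 0.503), and per kb it was the most abundant of the 4 in both groups.

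Mcm10 ran the other way. This gene encodes a scaffold that binds the activated helicase and polymerase alpha, and despite its name it is not part of the ring. It had 37.3, 56.9 and 79.5 CPM in EV and 25.5, 19.7 and 12.1 CPM in Sox4. The groups did not overlap, but both spread widely, and the fall was 1 of 2 non-overlapping decreases among the members (log2 fold change -1.60, SE 0.44, adjusted p = 0.00722). With the replicate number as a block in the edgeR fit, the call ended (-1.59, adjusted p = 0.113). Its exons overlap no other annotated gene and 0.0% of its 50-base words occur in other transcripts. Cdc45, which also joins the active helicase, had 13, 17 and 11 counts in EV and 57, 36 and 18 in Sox4 (0.86, adjusted p = 0.149), and it passed as higher without Sox4 replicate 3 (1.19, adjusted p = 0.0422).

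Among polymerase genes, 4 of 6 tested rose. Prim1, the catalytic primase subunit that lays down RNA primers, had 2.00, 2.20 and 3.05 CPM in EV and 6.67, 7.05 and 7.80 CPM in Sox4 (log2 fold change 1.56, SE 0.19, adjusted p = 0.000453). All 3 Sox4 libraries were above all 3 EV libraries. Pole, the leading-strand polymerase, rose by 1.38 (adjusted p = 0.00366), and Pold1, the catalytic lagging-strand polymerase, and its accessory subunit Pold3 by 0.90 and 0.54 (adjusted p = 0.0159 and 0.0288). These last 2 calls were fragile. The Pold1 call ended with EV replicate 2 (adjusted p = 0.0582), EV replicate 3 (0.054) or Sox4 replicate 2 (0.0633) left out, and the Pold3 call with EV replicate 1 (log2 0.35, adjusted p = 0.101) or any 1 Sox4 replicate (0.0525 to 0.0545) left out. Pola1, the catalytic subunit of polymerase alpha, was at 0.83 (adjusted p = 0.0685) with groups that did not overlap, and passed without Sox4 replicate 3 (1.02, adjusted p = 0.0388). Its partner Pola2 was at -0.16 (adjusted p = 0.497). Pole2 had 2, 1 and 1 counts in EV and 7, 10 and 10 in Sox4, a ratio of 4.54 (exact 95% interval 1.58 to 17.9) that was not tested.

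For the clamp, clamp loader and the single-strand binding protein RPA, 4 of 6 genes rose, by smaller amounts. Pcna, the sliding clamp that is widely used as a marker of S phase, had 23.2, 26.4 and 22.4 CPM in EV and 39.3, 34.8 and 33.7 CPM in Sox4. The groups did not overlap, but the change was 1.497-fold (log2 0.58, SE 0.10, adjusted p = 0.00282), well under that of any ring gene. In Pcna, 19.1% of 50-base words also occur in Pcna-ps2. Rfc3, a subunit of the loader that opens the clamp, had 4.39, 4.94 and 5.95 CPM in EV and 15.3, 11.03 and 11.8 CPM in Sox4 (1.32, SE 0.19, adjusted p = 0.000422), again without overlap. Rfc4 rose by 1.25 (adjusted p = 0.00533), whereas Rfc2 and Rfc5 of the same complex were at -0.08 and -0.11 (adjusted p = 0.646 and 0.642). Rpa2 rose by 0.61 (adjusted p = 0.0313) but lost its call with EV replicate 2 (adjusted p = 0.125) or 3 (0.0799) or Sox4 replicate 1 (0.0897) or 2 (0.075) left out.

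Of the genes that finish Okazaki fragments, Lig1 alone could be tested. Lig1, the ligase that seals the fragments, had 2.16, 3.57 and 1.23 CPM in EV and 9.02, 7.25 and 7.25 CPM in Sox4, and the groups were apart (log2 fold change 1.76, SE 0.43, adjusted p = 0.00165). Exo1, a 5′ exonuclease, had 0, 0 and 2 counts in EV and 22, 8 and 21 in Sox4, a ratio of 17.2 with a wide interval (exact 95%, 4.51 to 146). Fen1, the flap endonuclease, had 3, 5 and 2 counts in EV and 16, 5 and 8 in Sox4, so the groups overlapped, and 84.2% of its exon length is covered by genes on the opposite strand.

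The genes that supply deoxynucleotides fell into 2 patterns. Rrm1, the large subunit of ribonucleotide reductase, which makes deoxynucleotides from ribonucleotides, had 13.3, 12.1 and 14.5 CPM in EV and 46.7, 66.7 and 61.3 CPM in Sox4. It had the smallest adjusted p of all members (log2 fold change 2.13, SE 0.17, adjusted p = 5.39e-06). The small subunit Rrm2 had 4.47, 2.28 and 3.49 CPM in EV and 14.1, 15.3 and 8.72 CPM in Sox4 (1.90, SE 0.37, adjusted p = 0.000479). For both subunits every Sox4 library was above every EV library, although the Rrm2 libraries spread widely within Sox4. Thymidine kinase Tk1, which salvages thymidine, had 30.9, 16.7 and 15.4 CPM in EV and 13.9, 9.76 and 4.41 CPM in Sox4. Every Sox4 library was below every EV library, but the libraries differed so widely within groups that the gene did not pass (-1.16, SE 0.58, adjusted p = 0.0632), and it passed as lower without Sox4 replicate 1 (-1.57, adjusted p = 0.0473) or with DESeq2 (-1.17, adjusted p = 0.00501). Dut, which removes dUTP, overlapped between groups (-0.23, adjusted p = 0.428). Tyms, which makes thymidylate, rose by 0.51 (adjusted p = 0.0406) but lost its call with EV replicate 1 (adjusted p = 0.112), 2 (0.133) or 3 (0.0501) or Sox4 replicate 1 (0.133) or 2 (0.0821) left out, and with limma-voom (0.0533).

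Chromatin assembly factor CAF-1, which deposits histones behind the fork, rose in both listed subunits. Chaf1b had 0.694, 1.82 and 0.944 CPM in EV and 7.27, 8.02 and 8.26 CPM in Sox4 (log2 fold change 2.76, SE 0.37), and the groups were far apart. Chaf1a rose by 1.97 (adjusted p = 0.000558), although 52.5% of its exon length overlaps Ubxn6 on the opposite strand. Slbp, which binds the stem-loop of replication-dependent histone mRNA, was at -0.11 (adjusted p = 0.599).

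Of the fork protection and checkpoint genes, Clspn, an adaptor between the fork and the kinase Chk1, had 0 counts in each EV library and 22, 21 and 22 counts in Sox4. The 3 Sox4 libraries were nearly equal, at least 4.86-fold above the EV floor. Tipin, a fork protection factor, and Brca1, which acts in the repair of broken forks, were at 0.41 and 0.35 (adjusted p = 0.229 and 0.311), with overlapping groups.

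Subunits outside the list were set beside the members, without a test of the differences between subunits. The list of 47 other replication genes came from the same machinery and was chosen with earlier results of these data known. Of these, 45 were tested, 22 rose (48.9%), 4 fell and 19 did not pass, with a median log2 fold change of 0.45. The 3 increases with the smallest adjusted p were Top1 and Top2b, topoisomerases that relieve DNA twist (1.51 and 1.38), and Dck, a deoxynucleoside kinase (1.35). The 3 decreases with the smallest adjusted p were Pold2 (-1.84, adjusted p = 0.000194), Shmt1, which feeds thymidylate synthesis (-1.24, adjusted p = 0.000228), and Pold4 (-1.36, adjusted p = 0.00231). Pold2 had 17.2, 14.96 and 15.03 CPM in EV and 6.22, 3.93 and 3.04 CPM in Sox4. Polymerase delta thus held 2 subunits that rose (Pold1 and Pold3) and 2 that fell (Pold2 and Pold4). In polymerase epsilon Pole rose while Pole4, chosen here after its value was seen, fell by 0.93 on the log2 scale (adjusted p = 0.00262). In the origin recognition complex 3 of 6 subunits rose, 2 did not pass and 1 was untested, so licensing genes did not rise as a whole. In the clamp loader 2 of 5 subunits rose, in RPA 2 of 3, and in ribonucleotide reductase 3 of 3. The ring was the largest complex in which every subunit rose.

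**Figure D3:**
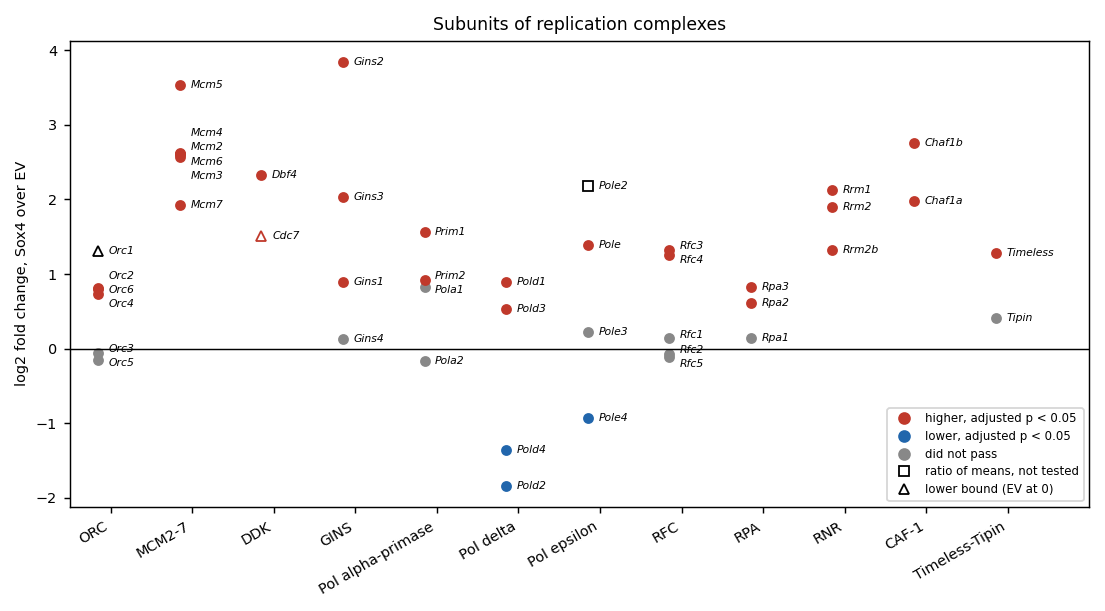
Log2 fold changes, Sox4 over EV (vertical axis), of the subunits of 12 replication complexes, coloured by the test, with open triangles for lower bounds of genes with no EV count and open squares for ratios of means of untested genes. All 6 subunits of the ring lie above 1.9, whereas polymerase delta has subunits on both sides of 0.

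Within the Sox4 group, the members ranked the libraries in a common way. Sox4 replicate 1 was the highest of its group for 30 of 45 members, and Sox4 replicate 3 was the lowest for 27. The summed CPM of all members was 269, 285 and 302 in EV and 537, 496 and 430 in Sox4. Sox4 transcript followed the same order, at 1088, 771 and 599 CPM in Sox4 replicates 1 to 3. The 18 mitosis genes described below did not, with sums of 94.4, 116 and 69.0 CPM in Sox4 replicates 1 to 3. With 3 libraries, no correlation was computed. The same ranking was not counted over all tested genes, so it cannot be called particular to the members.

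Other genes of the cycle gave context. Of 12 tested regulators of S-phase entry, 9 rose and 0 fell by edgeR (3 did not pass), against 29.0% and 26.0% of all tested genes. Of the 9, Ccna2 and Ccne1 passed the filter on low counts only through the Sox4 libraries, so their tests are no separate support. The 9 include Cdkn1a, an inhibitor of cyclin-dependent kinases (log2 fold change 1.51, adjusted p = 0.000245), and E2f1, an activator, was at -0.41 without passing. All 18 tested genes of mitosis rose, against 29.0% of all tested genes, with a median log2 fold change of 4.64. Most of the 18 were near 0 in EV and passed the filter on low counts only through the Sox4 libraries. Their tests are no separate support. Ccnb1, Bub1 and Cenpf had 0 counts in every EV library, and no lower bound was set for them in this median. Summed, the mitosis genes reached 6.01 to 9.66 CPM in EV libraries and 69.0 to 116 CPM in Sox4 libraries.

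Markers of other cells were present in the libraries at low levels. The summed CPM of 10 Kupffer cell markers was 12.4 to 27.9 in EV and 28.5 to 68.4 in Sox4, with 4 of 9 tested markers higher. In Sox4, these markers were lowest in replicate 1 and highest in replicate 3, the reverse of the members, as were the endothelial markers. Endothelial markers summed to between 22.0 and 38.9 CPM (EV) and between 20.1 and 47.6 CPM (Sox4), and lymphoid and neutrophil markers to between 0.848 and 2.66 (EV) and between 1.65 and 4.60 (Sox4), with Ms4a1 and Ly6g at 0 in every library. Cholangiocyte markers summed to between 27.5 and 43.7 CPM in EV and were at 85.2, 80.8 and 72.6 CPM in Sox4 replicates 1 to 3, the order of the members. Stellate markers summed to between 9.02 and 47.9 CPM in EV and were at 136, 146 and 91.1 CPM in Sox4, but Reln carried most of this (126, 117 and 50.8 CPM). The other 9 stellate markers summed to 9.37, 28.8 and 40.3 CPM in Sox4, the reverse of the members. Of the erythroid list, Alas2 carried the sum, between 92.5 and 126 CPM (EV) and between 4.10 and 14.6 CPM (Sox4), and it and Klf1 fell. Hba-a1 and Hbb-bs of that list, untested at these counts, were each higher in every Sox4 library than in any EV library but at 1.12 CPM or less. The part of these cells in the members' changes was not tested.

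**Figure D4:**
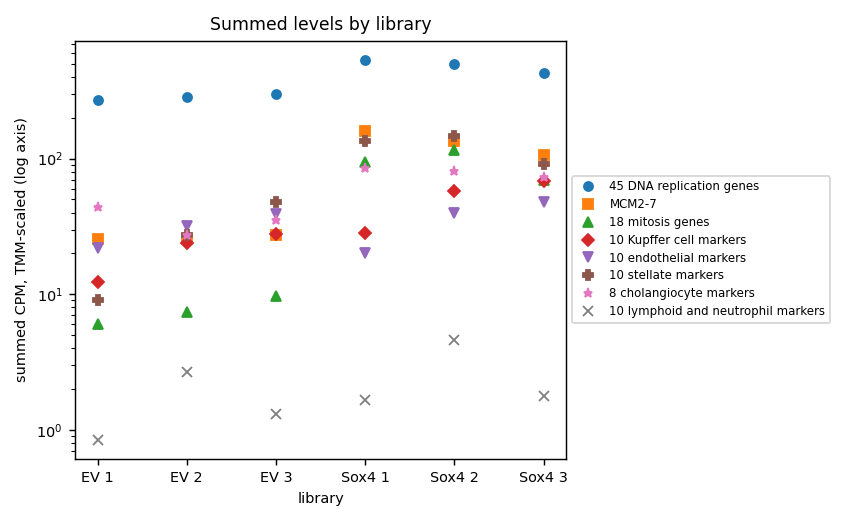
Summed CPM (log axis) in each of the 6 libraries for the 45 members, the ring genes, 18 mitosis genes and markers of 5 other cell classes, with 1 point per library. Among the Sox4 libraries, members, ring genes and cholangiocyte markers are highest in replicate 1, and Kupffer cell, endothelial, and lymphoid and neutrophil markers are lowest there. Mitosis genes and stellate markers are highest in replicate 2 and lowest in replicate 3.

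The scaling of the libraries bears on the genes near 0. TMM factors were 0.840 to 0.861 in EV and 1.18 in every Sox4 library. With library size alone, the median shift over all tested genes was 0.51 on the log2 scale in place of 0.04, and over the members 1.79. All 29 members that rose with TMM rose with library size alone too, and 6 more passed as higher (Cdc45, Gins4, Pola1, Rfc2, Brca1 and Tipin), against 51.0% of all tested genes. Mcm10 remained lower (-1.13, adjusted p = 0.0235), whereas Pola2, Rfc2, Rfc5, Dut and Slbp changed sign, so no direction is given for these 5.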

How the data were processed

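RNA-seq of 6 hepatocyte libraries (EV and Sox4, 3 each) was analysed. The authors aligned reads to GRCm39 with STAR and assigned them to genes with featureCounts 2.0.1, so the table they deposited holds raw counts. The strand setting, annotation release and treatment of reads with several positions are not given in the sources used here, so overlapping genes and near-identical copies are uncertain. A second table from the authors holds a normalized signal, the counts divided by DESeq2 median-of-ratios factors. Its header sits 1 cell to the left of its values, and it was used as an alternative only.

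Genes were kept with filterByExpr (minimum count 10, minimum total 15), scaled by TMM and tested with edgeR 4.0.16 (quasi-likelihood, robust, Benjamini-Hochberg over 12691 genes) in R 4.3.3, without covariates. The SE belongs to the difference between the mean log2 CPM of each group (prior count 2). A floor is 3 counts per library, and floors and intervals cover counting error only. Totals of 15090629 to 16964860 counts set the precision, and library pairs within groups differed beyond counting noise (chi-square per degree of freedom 17.6 to 62.7). The study describes the 3 libraries of a group as 3 animals. Exon lengths, overlaps and shared 50-base words came from GENCODE M21 (GRCm38), a different build, so no gene coordinates were taken from it. The code was tested on simulated data.

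Every member could be named. Values in each library were given for the member with the smallest adjusted p of each role, the 6 with the largest log2 fold change in each direction past the threshold, and Pcna, Mcm2, Rrm2 and Tk1. Members below the filter were given by their counts, and Cdc45, Gins3, Pold2 and Pole4 were shown after their values were seen. The other replication genes named are the 3 with the smallest adjusted p in each direction. Members and lists were chosen with earlier results of these data known. Alternatives were DESeq2 1.42.0, limma-voom and limma (3.58.1), other scalings and filters, a replicate block and leaving out each library.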

Additional observations from a re-analysis of the deposited data

How the results depend on the processing

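The number of members higher in Sox4 (29) lay between 26 and 30 with 1 library left out and between 24 and 35 under the other alternatives. The number lower (1) became 2 with DESeq2, where Tk1 passed, and ranged from 1 to 2 with 1 library left out. The median log2 fold change of the members (1.32) was 1.79 with library size alone, 1.42 unfiltered and 0.92 where the mean count had to reach 50, which tests 35 members, and ranged from 1.21 to 1.41 with 1 library left out. With library size alone, 34 other replication genes were higher in place of 22, and Pola2 (0.31), Rfc2 (0.39), Rfc5 (0.36), Dut (0.24) and Slbp (0.36) changed sign on the log2 scale. Rfc5 also did so without Sox4 replicate 3, its range with 1 library left out being -0.21 to 0.034. Where the mean count had to reach 50, 16 genes of S-phase entry and mitosis passed in place of 27, since fewer genes were tested. Of 568 values of single members under alternatives, 527 kept direction and side of the threshold, 23 no longer passed, 12 newly passed and 6 changed sign; the cause was not tested.

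The labels number libraries 1 to 3 in both groups, and deviations of same-numbered libraries correlated at 0.27, -0.09 and 0.13. With 3 libraries per group, these values cannot decide whether same-numbered libraries share more than a number. EV replicate 1 correlated best with its own number, the other two did not. With the replicate block, 30 members were higher and 1 lower: Mcm10 no longer passed (-1.59, adjusted p = 0.113, edgeR), Pola1 passed as higher (0.84, adjusted p = 0.0398) and Tk1 as lower (-1.22, adjusted p = 0.000771).

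Depth limited 4 members to counts too low to test, and folds of genes with no EV count to lower bounds.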
